A study of Drosophila melanogaster with 18 samples.

Results

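Late ageing of the fly ear was followed in 8 of 18 libraries of the 2nd antennal segment, 4 from flies at day 50 and 4 from flies at day 25. The segment houses Johnston's Organ (JO), the antennal ear of *Drosophila melanogaster*, and its RNA was sequenced to find which transcripts change before hearing declines. All flies were virgin Canton-S, a wild-type strain, reared in incubators and aged in vials that kept the sexes apart. Libraries were chosen by their labelled age alone, and the labels gave 2 libraries per age and sex. At day 50 these were CT15 and CT16, labelled male, and CT17 and CT18, labelled female. At day 25 they were CT11 and CT12, labelled male, and CT13 and CT14, labelled female. No label says whether the 2 libraries of a group came from separate cohorts of flies, so the p-values reflect only how far these samples differ, which may be technical. Values of single libraries are given below in this order. A value is a normalised count, which is the number of reads of a gene divided by 1 size factor per library. Log2 fold changes are those of log2(value + 1), day 50 over day 25, with sex in the model, and understate the changes of low genes. A gene was tested where at least 2 of the 8 libraries reached a value of 10. It was called where its Benjamini-Hochberg adjusted p in limma was below 0.1 and its fold change above 1.5, and "rose" and "fell" are used of called genes only.

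JO is a chordotonal organ, in which stretch-sensitive neurons with a ciliated dendrite sit in units wrapped by scolopale and other support cells. The neurons open TRP family channels when the third segment turns, and axonemal dyneins in the cilium power their active movement. The segment also holds cuticle, muscle, glia and trachea, and hemolymph with its circulating hemocytes reaches all of them. In ageing flies, genes of innate immunity and stress peptides are known to become more active in many tissues. The peptides come from fat body and hemocytes as well as from epithelia, under the control of the Toll, Imd and JAK/STAT pathways.

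The transcripts that mark the sexes disagreed with the labels of 2 libraries of day 50. *roX1*, a noncoding RNA of male dosage compensation, stood at 24812, 21999, 1118 and 16418 at day 50 and at 27560.3, 16419.5, 757 and 605 at day 25. *Yp1*, a yolk protein of females, stood at 1944, 25444, 24388 and 19045 at day 50 and at 151, 184, 17192 and 16194 at day 25. CT16, labelled male, thus held *Yp1* at a female level, and CT18, labelled female, held *roX1* at a male level, while the 4 libraries of day 25 followed their labels. The library labelled male CT15 also held more *Yp1* than either male library of day 25. List counts are therefore given with all 8 libraries and without CT16 and CT18. Reads in genes ran from 8279805 to 14121124 at day 50 and from 5815182 to 12026871 at day 25. The first principal component of genes with a mean of 50 or more carried 50.8% of the variance and separated the ages, and the second, with 20.1%, set CT15 apart from CT17.

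The marker genes of JO were present at both ages. The 10 markers of JO neurons summed to 7704 to 10241 normalised counts at day 50 and to 9785 to 10567 at day 25, with 1 fall and no rise among them. The 5 markers of scolopale and support cells summed to 12276 to 14437 at day 50 and to 10691 to 16169 at day 25. Markers of retina, hemocytes and fat body moved far more. Their median log2 fold changes were 1.61, 0.75 and 2.37, against -0.22 for the markers of JO neurons. The medians of glia, trachea and muscle markers, at 0.06, -0.15 and -0.20, were no larger in size than that of JO neurons. Testis markers had a median of -0.44 and no call. Of the 12 retina markers, *Rh4*, *Rh6*, *ninaC* and *trp* are listed by the study among genes found before in JO. The 12 summed to 117365, 89619, 5121 and 61303 at day 50 and to 10532, 10506, 18175 and 12404 at day 25. They were high in CT15, CT16 and CT18 and lowest of all in CT17. The 9 hemocyte markers summed to 52370, 57501, 18675 and 39142 at day 50, above the 4434 to 14915 of day 25. Most of each sum came from 1 gene, *Nplp2*, at 49586, 55055, 16512 and 37023 at day 50 and at 2901 to 12861 at day 25. Of the 9 markers, 5 rose and 2 fell. The fat body markers, of which 9 of 10 were found, summed to 45475 to 95691 at day 50 and to 16652 to 68689 at day 25. Muscle markers were lower at day 50, with sums of 10028 to 11600, against 13030 to 15822 at day 25, and 1 of 10 rose and 3 fell. None of the markers was at 0 in all 8 libraries, and of the testis markers *Mst84Da* stayed under 10. In such bulk samples, fewer cells of a type and less RNA per cell cannot be told apart.

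**Figure D1:**
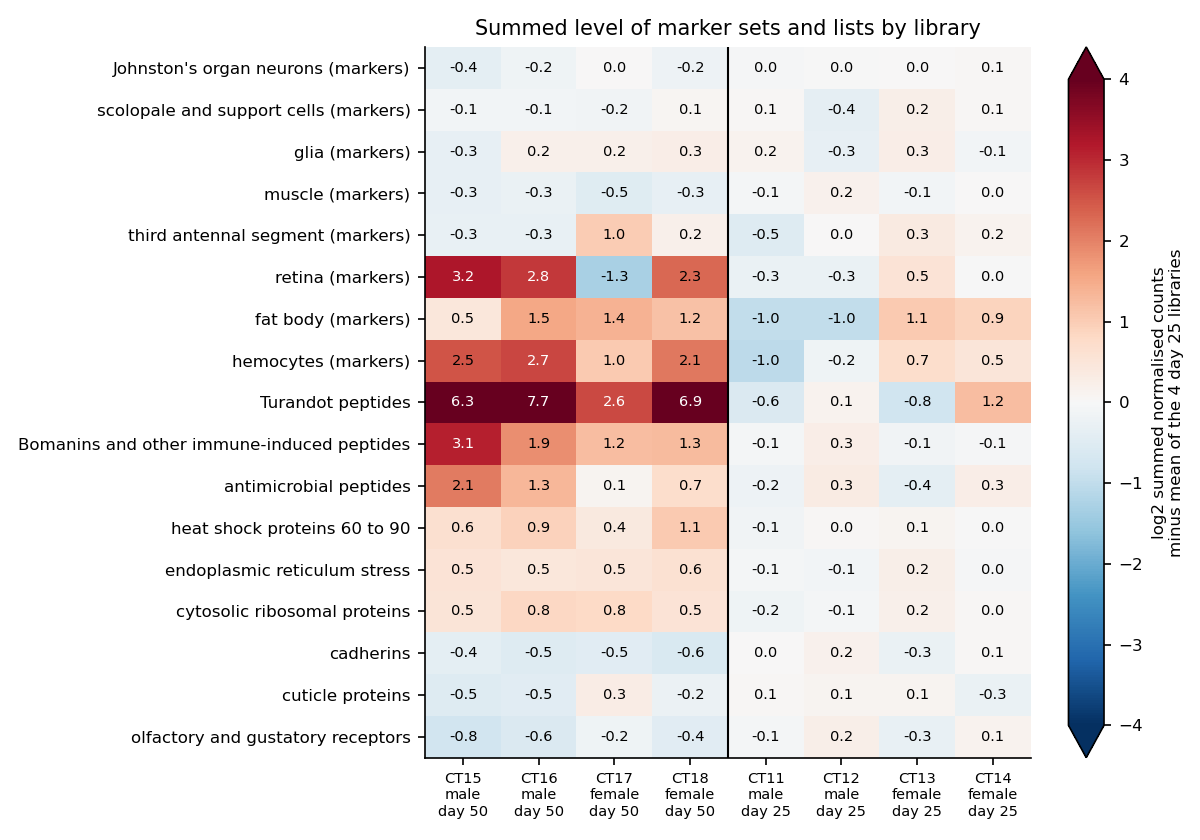
Summed normalised counts of marker sets and gene lists in each library, shown as log2 minus the mean of the 4 day 25 libraries, with the 4 day 50 libraries on the left. Retina markers stand at 3.2, 2.8 and 2.3 in CT15, CT16 and CT18 and at -1.3 in CT17, while Turandot peptides stand at 2.6 to 7.7 in all 4 libraries of day 50.

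More genes fell than rose with late age in all 8 libraries, but not without CT14, and both groups shrank without CT16 and CT18. Of 14022 genes tested, 1445 (10.3%) rose and 2300 (16.4%) fell at day 50. Changes over 2-fold numbered 495 rises and 1409 falls, and changes over 4-fold 122 rises and 178 falls. Across all tested genes, 11.5% had every day 50 library above every day 25 library and 9.06% had every day 50 library below. The same direction held in both sexes for 1439 of the rises and for all 2300 falls. A call made on both sexes together favours this outcome. Within females, 143 genes rose (1.02%) and 114 fell (0.813%), and within males, 1072 rose (7.65%) and 918 fell (6.55%). Leaving out 1 library gave 14 to 255 rises and 1 to 534 falls in females, the lowest without CT14, and 399 to 1066 rises and 33 to 1138 falls in males, the lowest without CT12. In the 6 libraries other than CT16 and CT18, 486 of 13883 genes rose (3.5%) and 496 fell (3.57%), of which 470 and 483 were among the calls of the 8 libraries. The counts of rises and falls became 1172 and 1194 without CT12, 1068 and 1050 without CT14, and 1032 and 1505 without CT16. Of the calls, 740 rises and 904 falls were kept whichever of the 8 libraries was left out. The shares of all genes, 10.3% rises and 16.4% falls with all libraries and 3.5% and 3.57% without CT16 and CT18, are the background for the gene lists that follow.

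The direction went with the level of the gene. The 5637 genes whose mean reached 300 had rises in 13.8% and falls in 6.55%. Among genes with a mean of 20 to 50 normalised counts, 3.61% rose and 28.3% fell, and among those of 50 to 100, 9.21% rose and 29.9% fell. From 1000 to 3000, 13.6% rose and 1.86% fell, and from 3000 to 10000, 23.4% rose and 1.61% fell. Of 1424 lincRNAs, 35 rose (2.46%) and 480 fell (33.7%), against 11.4% and 14.3% of 12287 protein-coding genes. At a mean under 50, where 867 of the lincRNAs lay, 25.7% of lincRNAs and 21.1% of protein-coding genes fell. At a mean of 50 to 300 these shares were 50.9% and 20.8%, and from 300 they were 27.8% and 6.11%. Without CT16 and CT18, 5.69% of lincRNAs and 3.29% of protein-coding genes fell, and at a mean of 50 to 300, 7.24% and 5.04%. The 2300 genes that fell had a median of 39.8 to 61.3 normalised counts in the libraries of day 50, against 72.6 in CT13 and 106 to 136 in the other 3 libraries of day 25. Genes with a mean under 50 took 0.507% to 0.798% of the reads at day 50 and 0.689% to 1.26% at day 25. In the 10 libraries of days 1, 5 and 10 the same 2300 genes had medians of 51.5 to 84.3, so that CT11, CT12 and CT14 stood above every other of the 18 libraries. CT11 and CT12 were also the shallowest of the 8 libraries, and the part of depth in these falls was not tested.

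Among genes that were well expressed, the direction also went with the summed exon length of the gene, which joins the exons of all its transcripts. Protein-coding genes with a mean of 300 or more were split by summed exon length into 6 bins. In the shortest, of 162 to 1219 bases, 32% of 900 genes rose and 3.44% fell, with a median log2 fold change of 0.44. In the longest, of 5695 to 71820 bases, 1.45% of 898 rose and 6.9% fell, with a median of -0.05. The bins between stood in order, with medians of 0.32, 0.23, 0.15 and 0.07. Without CT16 and CT18 the medians ran from 0.39 in the shortest bin to -0.05 in the longest. Lists of short genes, such as ribosomal proteins, and of long genes, such as cadherins, are set beside this trend.

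**Figure D2:**
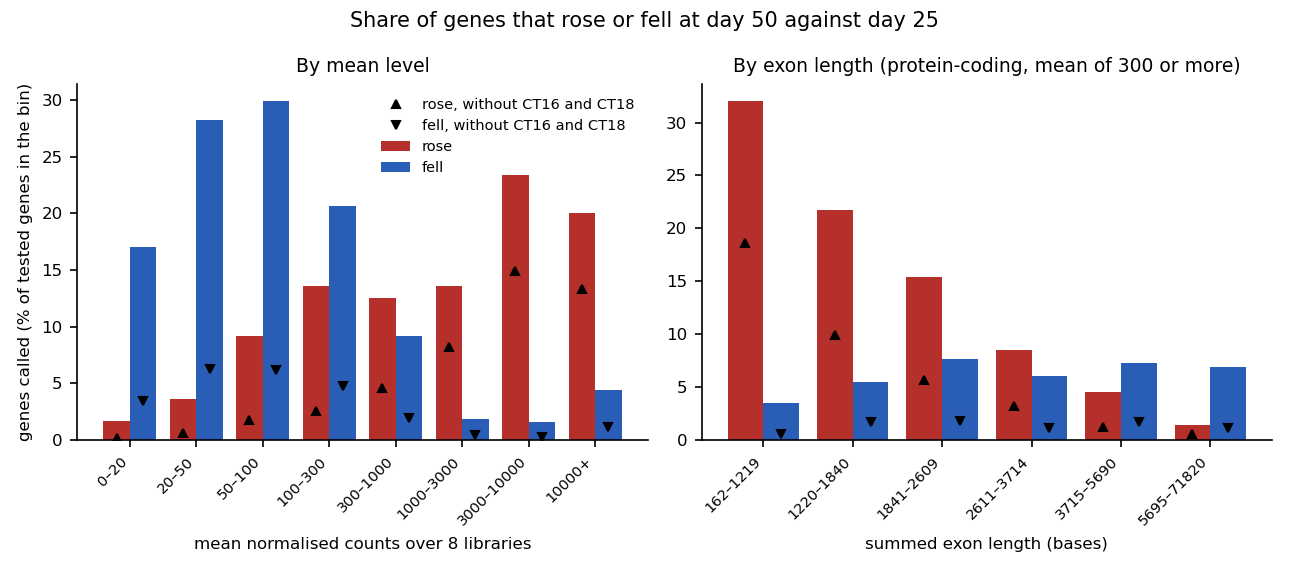
Percent of tested genes that rose or fell at day 50 against day 25, by mean normalised counts over the 8 libraries (left) and by summed exon length in bases for protein-coding genes with a mean of 300 or more (right). Bars use all 8 libraries and triangles leave out CT16 and CT18, and falls gather in bins under 300 normalised counts while rises decline with length, to 1.45% in the longest bin against 32% in the shortest.

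The largest rises were those of Turandot genes, which encode secreted peptides induced by stress and infection, and of *Diedel*, which encodes a secreted regulator of immune signalling. *TotC* (FBgn0044812, 3R from 20872988 to 20873580 of dm6, + strand) stood at 4287, 13703, 396 and 7575 at day 50 and at 7.77, 32.7, 11.9 and 130.2 at day 25. Its log2 fold change was 7.10 (standard error 0.92, adjusted p = 0.00066 in limma), and 5.61 without CT16 and CT18. Every library of day 50 was above every library of day 25, with CT17 the lowest of the 4. *TotA* (FBgn0028396, 3R from 20871036 to 20871700) stood at 25629, 43769.5, 1891 and 27789 at day 50 and at 103, 255, 157 and 643 at day 25. The log2 fold change was 6.10 (standard error 0.75). *TotM* rose by 6.43 and *TotX* by 6.28. Of 6 Turandot genes tested, 4 rose and none fell, also without CT16 and CT18 and without any single library. The other 2 are *TotB*, at 103, 105, 34.9 and 122 at day 50 and 110.4, 108, 46.96 and 107 at day 25, and *TotF*, whose values stayed under 20. *Diedel* (FBgn0039666, 3R from 29493852 to 29494267) stood at 527, 7592, 24.4 and 3822 at day 50 and at 1.55, 5.45, 3.42 and 29.2 at day 25. CT17 lay within the range of day 25. The log2 fold change was 6.85 (adjusted p = 0.00524 in limma), and 4.08 without CT16 and CT18 (adjusted p = 0.0826).

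JAK/STAT signalling, in which cytokines act through the receptor *dome*, the kinase *hop* and the factor *Stat92E*, changed at few of its genes. Of 14 tested, 3 rose and 1 fell, also without CT16 and CT18. *Socs36E*, a feedback inhibitor that the pathway itself induces, stood at 1899, 1054, 888 and 917 at day 50 and at 558, 392, 503 and 460.2 at day 25 (log2 fold change 1.25, standard error 0.21, adjusted p = 0.003 in limma). *et*, which encodes a receptor relative that dampens the pathway, rose by 1.46, and the relative *Diedel3* fell by 1.37. *Stat92E* itself had a log2 fold change of 0.23 and did not pass the test. In both *Socs36E* and *et*, all 4 libraries of day 50 were above those of day 25.

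**Figure D3:**
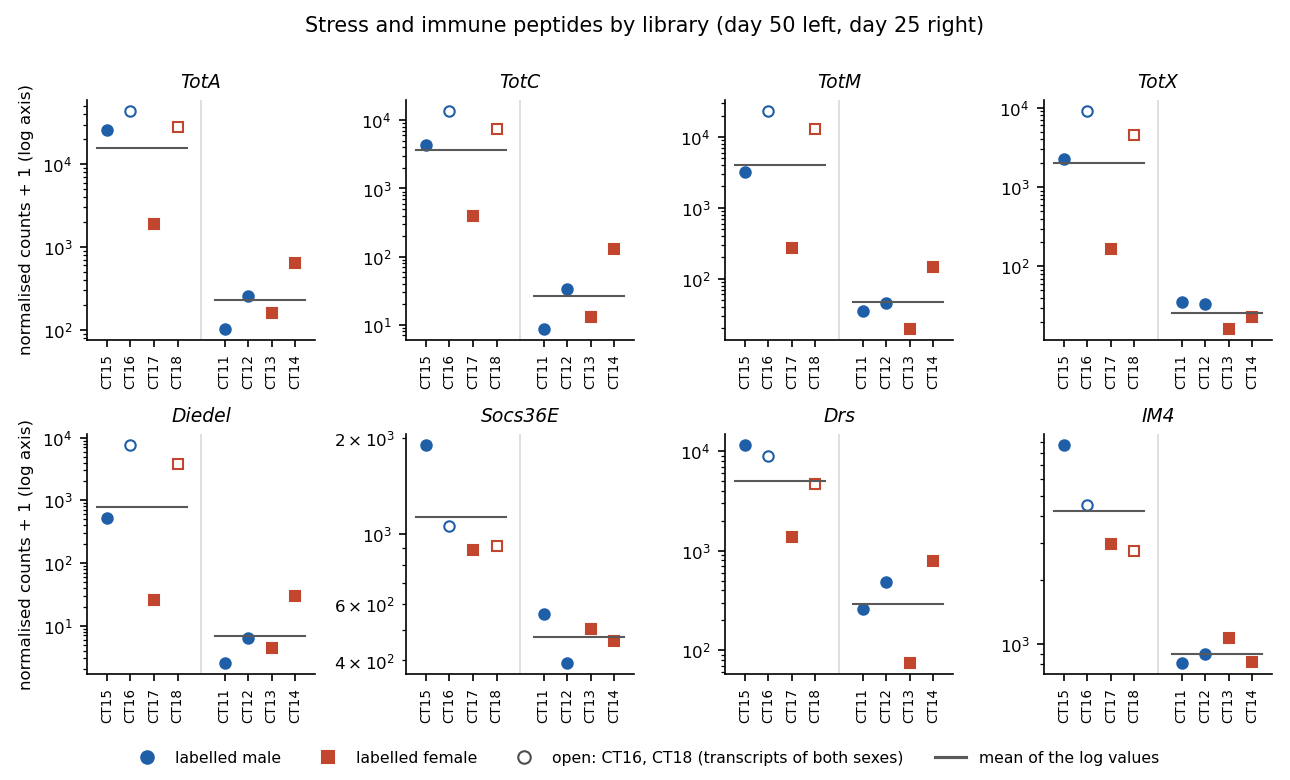
Normalised counts plus 1, on a log axis, of 8 stress and immune genes in each library, with day 50 on the left and day 25 on the right of each panel. Horizontal lines are means of the log values, open symbols are CT16 and CT18, and *TotC* lies at 396 to 13703 at day 50 against 7.77 to 130 at day 25.

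The peptides of the Toll response rose as a whole list. All 13 tested Bomanins and other immune-induced peptides, short secreted peptides that follow Toll activation, rose (against 10.3% of all genes), with a median log2 fold change of 1.79. All 13 rose as well without CT16 and CT18, where the median was 2.28, and without any single library. *IM4* (FBgn0040653, 2R from 20868496 to 20869321) stood at 8664, 4536, 2965 and 2756 at day 50 and at 813, 900.0, 1068 and 823 at day 25. The difference was 2.24 on the log2 scale (standard error 0.25, limma adjusted p = 0.000333). *IM23* rose by 2.38, *CG15067* by 2.50 and *IM14* by 1.85. CT15 was the highest library for all 4 of these genes, and CT17 was not set apart from CT16 and CT18 as it was for the Turandot genes. Hemocytes and fat body are tissues known to make such peptides. Of 9 hemocyte markers 5 rose and 2 fell, with a sum that came mostly from *Nplp2*. Of 8 fat body markers tested 7 rose and none fell. *Yp1*, *Yp2* and *Yp3* are among these 7, and they carry the sex of the flies as well as the age. A longer list of fat body genes had 8 rises in 18, with a median log2 fold change of 0.37. The part of hemocytes and fat body in the rises of the peptides was not tested.

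Antimicrobial peptides were less even. Of 19 tested, 11 rose and 1 fell, with a median of 1.52, but 1 rose and none fell without CT16 and CT18, where the median was 1.62, and 5 rose without CT12. *Drs*, which encodes the antifungal drosomycin, stood at 11483, 8837, 1384 and 4674 at day 50 and at 258, 482, 73.4 and 777 at day 25 (log2 fold change 4.12, standard error 0.57, adjusted p = 0.00103 in limma). It was the rise that passed without CT16 and CT18 (3.77, adjusted p = 0.0321). *Mtk*, of the peptide metchnikowin, stood at 8871, 9939, 285 and 5162 at day 50 and at 731, 844, 92.2 and 822 at day 25. There CT17 lay within the range of day 25, and the log2 fold change of 2.86 became 1.77 (adjusted p = 0.198) without CT16 and CT18. *Dro*, of the peptide drosocin, rose by 2.68, *DptB*, a diptericin, by 2.56 and *AttC*, an attacin, by 2.19. CT17 was the lowest library of day 50 for *Dro* and *DptB*. *Dpt*, named here after its values were seen, stood at 18099, 4006, 266 and 2298 at day 50 and at 843, 904, 269.8 and 2116 at day 25 and did not pass the test, being over 4-fold higher in CT15 than in any other library. *Drsl5*, a drosomycin relative with a high level in this tissue, fell by 0.71, a call lost without any 1 of 5 libraries.

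Upstream of the peptides, 7 of 33 genes of the Toll and Imd pathways rose and none fell, and 5 rose without CT16 and CT18. They span recognition, signalling and its restraint. *PGRP-SA*, a circulating receptor that activates Toll, stood at 874, 772, 234 and 483 at day 50 and at 106, 124, 82.8 and 225 at day 25, a log2 fold change of 2.06 (adjusted p = 0.0034 in limma). *PGRP-SD*, a further recognition protein, rose by 1.22. *PGRP-LB*, an amidase that degrades peptidoglycan, rose by 0.99 and *pirk*, an inhibitor of Imd receptors, by 0.84. Within the cascades, the Toll kinase *pll* rose by 0.67, the Imd subunit *key* by 0.73 and the serpin *nec*, which restrains Toll activation, by 0.65. The protease *SPE*, which activates the Toll ligand, had 0.33 and did not pass.

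Of 14 hemocyte genes tested, 9 rose and 2 fell, and 6 rose and none fell without CT16 and CT18. *NimB5*, of a secreted Nimrod protein, stood at 575, 446, 369 and 418 at day 50 and at 97.95, 138, 110.2 and 193 at day 25 (log2 fold change 1.77, standard error 0.24, adjusted p = 0.0009 in limma). *NimB4* rose by 1.65, and both genes had no overlap between the ages. *Hml*, of the clotting protein hemolectin, rose by 0.71, the phagocytosis receptor *eater* by 1.02 and the GATA factor *srp* by 1.29. The chains of collagen IV, a basement membrane protein, rose as well, *vkg* by 1.28 and *Cg25C* by 1.23. *Nplp2*, of a secreted peptide precursor, stood at 49586, 55055, 16512 and 37023 at day 50 and at 2901, 6272, 12861 and 10329.7 at day 25. The 2 falls were those of *PPO1* and *PPO2*, prophenoloxidases of crystal cells, by 0.93 and 0.72.

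Of 18 fat body genes tested, 8 rose and 1 fell, and 7 rose and 1 fell without CT16 and CT18. *Lsd-1*, a perilipin of lipid droplets, stood at 4034, 1257, 582 and 858 at day 50 and at 90.2, 257, 111 and 318 at day 25 (log2 fold change 2.89, adjusted p = 0.00256 in limma). *fit*, of a secreted satiety peptide of females, stood at 819, 6089, 1890.1 and 4876 at day 50 and at 32.6, 47.7, 738 and 939 at day 25. Its male libraries of day 25 were far below all the others, as for the yolk proteins. *Yp3* stood at 1484, 18565, 17668 and 13298 at day 50 and at 38.9, 14.98, 9342 and 10652 at day 25, *Yp2* rose by 3.65 and *Yp1* by 2.88. These yolk proteins carry the sex of the flies as well as the age, and CT16 and CT18 hold both sexes' transcripts. Without these 2 libraries the rise of *Yp3* was 3.35 (adjusted p = 0.0545), resting within males on CT15 alone. *Gnmt*, of an enzyme of methyl donor balance, named after its values were seen, rose by 2.90 with 9022, 1243, 932 and 844 at day 50 and 373, 391, 77.7 and 246 at day 25.

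Genes of phototransduction and pigment cells were high in 3 of the 4 libraries of day 50. The study lists *Arr2*, *trp*, *Rh5* and *Pph13*, named below, among genes found before in JO. Of 30 phototransduction and pigment cell genes tested, 18 rose and 1 fell, with a median of 1.48, but none rose or fell without CT16 and CT18, where the median was 0.95. Without CT12, 9 rose. *Arr2*, the arrestin that shuts off rhodopsin, stood at 41963, 35454, 1922 and 24119 at day 50 and at 3106, 2667, 3609 and 3741 at day 25 (log2 fold change 2.32, adjusted p = 0.02 in limma). *trp*, the light-gated channel, stood at 8621, 5443, 381 and 4443 at day 50 and at 487, 368, 718 and 603 at day 25. In both genes CT15, CT16 and CT18 were above every library of day 25, while CT17 was below 3 of those for *trp* and below all 4 for *Arr2*. *chp*, of a photoreceptor adhesion protein named after its values were seen, was likewise high in CT15, CT16 and CT18, with 2997, 1954, 184 and 1398 at day 50 and 253, 230.1, 262 and 194 at day 25. *Rh5* and *Rh3*, opsins of inner photoreceptors, rose by 2.42 and 2.65. *ninaE*, the main opsin, had 1.66 and did not pass (adjusted p = 0.115). The factor *Pph13*, which controls photoreceptor genes, rose by 2.18, with 436, 294, 24.4 and 209 at day 50 and 37.3, 39.5, 24.8 and 39.6 at day 25. The retina markers share genes with this list, *ninaE*, *Rh3* and *trp* among them, so their move in the same libraries is not a separate observation. Of the 12 markers, 8 rose with all 8 libraries and none without CT16 and CT18. The parts of eye tissue and of JO cells in these rises were not tested.

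A further set of rises was largest in CT17. Of the 15 largest rises among genes with a mean of 50 or more and the same direction in both sexes, *Cda9*, *CG3906*, *CG4783*, *CG34220*, *Cht8*, *CG5506* and *CG34324* were over 4-fold higher in CT17 than in any other library. CT17 was the highest library in 8 of the 15, CT16 in 6 and CT15 in 1. *Cda9*, a chitin deacetylase, stood at 170.4, 252, 1266 and 174 at day 50 and at 12.4, 4.08, 0.85 and 16.98 at day 25 (log2 fold change 5.50, standard error 0.71, adjusted p = 0.000646 in limma). *Cht8*, a chitinase, stood at 180.2, 226, 1794 and 157 at day 50 and at 15.6, 14.98, 4.27 and 18.9 at day 25. Both were higher in every library of day 50 than in any of day 25, and *Cht9*, a further chitinase, rose by 3.94. *CG34220*, of unknown function, stood at 1385, 6758, 56174 and 4157 at day 50 and at 4695, 42.2, 97.3 and 254 at day 25. Here CT11 of day 25 was above CT15 and CT18 of day 50, and without CT16 and CT18 the gene did not pass (5.05, adjusted p = 0.104). The mucin *Muc68D*, named after its values were seen, shared that pattern, with 1710.0, 2619, 22335 and 1634 at day 50 and 2138, 159, 99.05 and 258 at day 25. In all, 13 genes with a mean of 50 or more were at least 4-fold higher in CT17 than in every other library. CT15 led 19 genes in this way, *Dpt* and *Gnmt* among them, CT11 led 4, and the other 5 libraries led none.

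**Figure D4:**
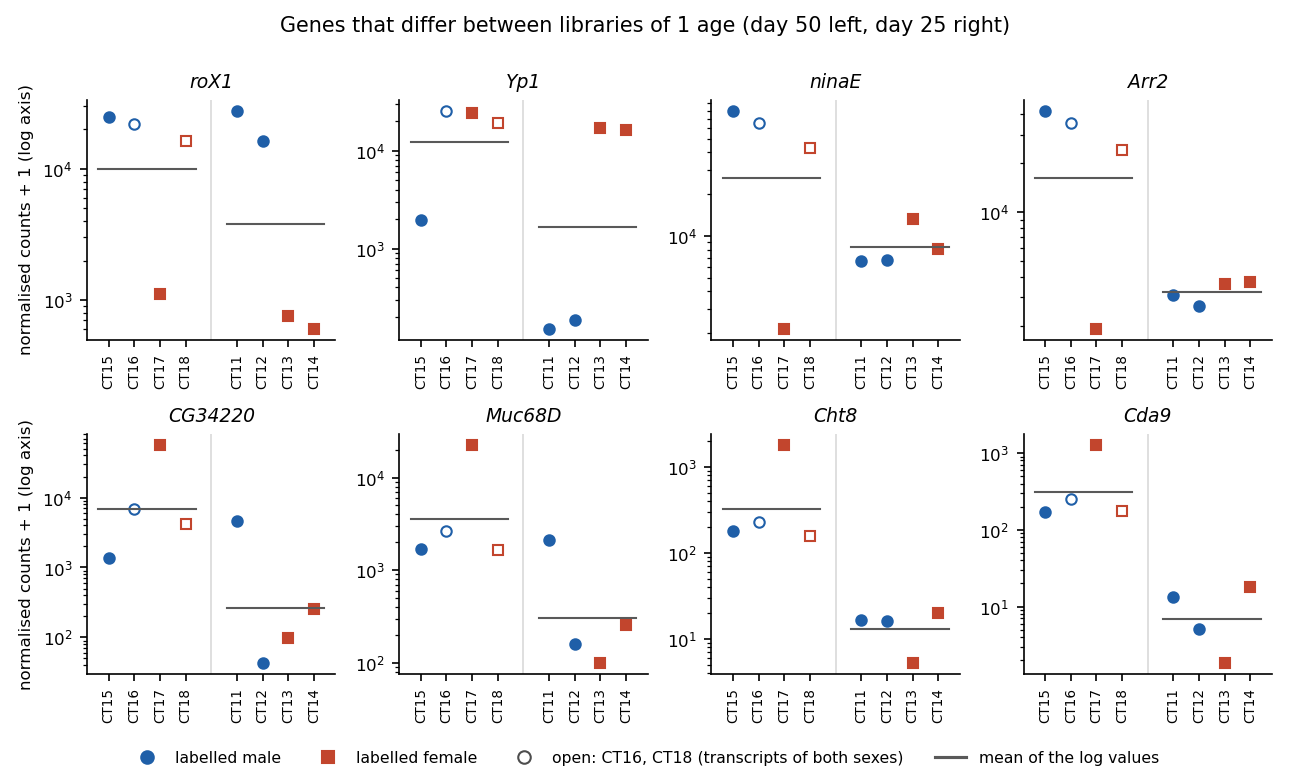
Normalised counts plus 1, on a log axis, of 8 genes that differ between libraries of the same age, with day 50 on the left and day 25 on the right of each panel. *roX1* and *Yp1* are both high in CT16 and CT18 (open symbols), the phototransduction genes *ninaE* and *Arr2* are low in CT17 alone among the day 50 libraries, and *CG34220*, *Muc68D*, *Cht8* and *Cda9* are highest in CT17.

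Enzymes of chitin turnover moved both ways. Of 28 tested, 6 rose and 5 fell, 4 rose and 1 fell without CT16 and CT18, and 2 fell without CT12. The imaginal disc growth factors, chitinase relatives without catalytic activity, were on the side of rises, *Idgf1* with 2.05, *Idgf2* with 0.60 and *Idgf3* with 0.63. The chitin synthase *kkv* fell by 1.28.

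Several abundant genes were named after their values were seen. *Arc1*, of a capsid-forming protein that carries RNA between cells, stood at 11171, 7574, 12497 and 8320.4 at day 50 and at 2069, 2467, 2051 and 2632 at day 25. Its log2 fold change was 2.08 (standard error 0.18, adjusted p = 6.3e-05 in limma), and 2.37 without CT16 and CT18. *MtnA*, a metallothionein that binds copper and zinc, stood at 11856, 8322, 7302 and 7287 at day 50 and at 2023, 2941, 2139 and 2687 at day 25 (log2 fold change 1.82, standard error 0.18, adjusted p = 0.00013). The ages did not overlap in either gene. Both ferritin chains, which store iron, rose, *Fer1HCH* by 0.94 and *Fer2LCH* by 1.00, and *Tsf1*, the iron carrier transferrin, rose by 0.90. The ferritin genes overlap on opposite strands, so a library that does not mark strand cannot fully separate their reads. *Inos*, the enzyme that makes inositol, rose by 1.02, and the lysosomal proteases *cathD* and *Cp1* by 0.67 and 0.68.

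Among the 8 most abundant rises, *CG18067*, of unknown function (FBgn0034512, 2R from 20534245 to 20535835), stood at 80536, 75854, 71650.0 and 77406 at day 50 and at 29155, 30432, 38541 and 29808 at day 25. The ages did not overlap. The log2 fold change was 1.26 (standard error 0.19, adjusted p = 0.00155 in limma), and 1.26 without CT16 and CT18. *noe* rose by 1.00, *CG6357* by 1.04 and the lincRNA *CR34335* by 0.88. *mt:ATPase6*, a subunit of ATP synthase encoded in mitochondria, stood at 96109.6, 87012, 102942 and 91418 at day 50 and at 52169.8, 51842, 54658 and 44371 at day 25, a log2 fold change of 0.90. The other 3 were *Nplp2*, the elongation factor *Ef1alpha48D* with 0.65 and the chaperone *Hsc70-4* with 0.61.

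The 8 most abundant falls were those of *Est-6*, *CAH2*, *Msr-110*, *Drsl5*, *CG10553*, *CG9497*, *dp* and *sls*. *Est-6*, a secreted esterase (FBgn0000592, 3L from 12188818 to 12190705), stood at 5591, 8529, 22801 and 13319.6 at day 50 and at 23688, 24379, 41935 and 26369.9 at day 25 (log2 fold change -1.37, standard error 0.24, adjusted p = 0.00395 in limma). *CAH2*, a carbonic anhydrase, stood at 10598, 12015, 36450.1 and 16674 at day 50 and at 30838, 22216, 51810.0 and 33165 at day 25, a log2 fold change of -0.98. For both, CT17 was the highest library of day 50 and CT13 the highest of day 25, and the ages overlapped for *CAH2* but not for *Est-6*. *dp*, of a giant protein that anchors cells to cuticle, fell by 0.88, with 4215, 3585, 4004 and 3310.2 at day 50 and 7001, 8612, 4667 and 8278 at day 25. *sls*, the titin relative of muscle, fell by 0.67, and *Msr-110*, *CG10553* and *CG9497* fell by 0.60, 0.65 and 0.63, calls lost without any 1 of 4 libraries or, for *CG9497*, of 5. When CT16 and CT18 were left out, *Est-6* (-1.32, adjusted p = 0.0624) was the 1 of these 8 to pass.

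Ribosomal proteins rose together. Of 89 cytosolic ribosomal protein genes tested, 66 rose and 1 fell, with a median of 0.69, and 57 rose and none fell without CT16 and CT18. *RpL34b* stood at 1494, 1815, 1828 and 1562 at day 50 and at 779, 628, 997 and 917 at day 25 (log2 fold change 1.03, standard error 0.15, adjusted p = 0.00155 in limma). *RpS27* rose by 0.96 and the stalk protein *RpLP1* by 0.92, again with no overlap between the ages. The fall was that of *RpL22-like*, a paralog known from the germline, by 1.17. The list's median summed exon length was 921.5 bases, within the shortest bin of the length trend, where 32% of genes rose and the median was 0.44. Of 74 mitochondrial ribosomal proteins, also short, 11 rose and none fell (median 0.37), with 2 rises without CT16 and none without CT16 and CT18. Of 19 translation factors, 9 rose and none fell, with 4 rises without CT16 as well as without both CT16 and CT18. *eIF-2beta*, a subunit of the factor that brings the initiator tRNA, rose by 1.40 and the elongation factor *Ef1beta* by 0.89.

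Chaperones of the endoplasmic reticulum and of the cytosol had more rises than all genes together (10.3%). *Hsc70-3*, the BiP chaperone of the endoplasmic reticulum, stood at 6102, 5238, 4124 and 5549 at day 50 and at 2094, 2136, 3103 and 2816 at day 25 (log2 fold change 1.06, standard error 0.17, adjusted p = 0.0025 in limma). *Gp93*, its Hsp90 relative, rose by 0.89, the translocon subunit *Sec61beta* by 0.87 and *Xbp1*, the factor of the unfolded protein response, by 0.69. Of 15 genes of the list 6 rose and none fell, and 5 rose without CT16 and CT18. Of 15 heat shock proteins of the 60 to 90 classes, 9 rose and none fell, but 1 rose without CT16 and CT18 and 3 without CT18. *Hsp83*, the fly Hsp90, stood at 10122, 13606, 5751 and 14759.6 at day 50 and at 2739, 6194, 3676 and 3585 at day 25 (log2 fold change 1.43). *Hsp70Aa* and *Hsp70Ab*, near-identical copies whose reads are hard to divide, were called but stayed under 50, and each call was lost without any 1 of 6 libraries. Of 10 small heat shock proteins, 4 rose, *Hsp26* by 1.97, and 1 fell, with 2 rises without CT15 and 1 without CT16 and CT18.

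The proteasome degrades tagged proteins. Of 44 of its genes tested, 7 rose and 5 fell, none rose and 2 fell without CT16 and CT18, and 2 fell without CT18 alone. The rises were those of *Prosbeta1*, *Prosalpha6*, *Rpt4*, *Rpt6*, *Rpn2*, *Rpn6* and *Rpn11*, of the general particle, by 0.61 to 0.71. The falls were those of *Rpn13R*, *Prosalpha4T2*, *Prosalpha6T*, *Prosbeta4R2* and *Prosbeta5R1*, paralogs of low level, such as *Rpn13R* with 90.7, 74.7, 120.2 and 78.7 at day 50 and 165, 275, 206 and 315 at day 25. The vacuolar ATPase, a proton pump, gave no rise and 5 falls in 30, against 16.4% falls in all genes, 3 falls without CT18 and 1 fall without CT16 and CT18. Its median was 0.33, and 21 of the 30 had a change above 0. Its falls included *VhaAC39-2* (-1.14) and *Vha100-5* (-1.08), while the abundant *Vha16-1* had 0.38 and did not pass. Of 19 autophagy genes 3 rose, *Atg3* by 0.80, and *Atg7* fell by 0.73. Of these, the rise of *Atg3* held without CT16 and CT18.

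Of 66 nuclear genes of the respiratory chain 2 rose, *Cyt-c-p* of cytochrome c by 0.68 and *ox* by 0.71, and 3 fell, and 1 rose and 1 fell without CT16 and CT18. The median of the 66 was 0.34, 55 had a change above 0, and 27 had every library of day 50 above every library of day 25, against 11.5% of all genes. Of 13 nuclear genes of ATP synthase none was called, with a median of 0.36, 12 changes above 0 and 6 genes without overlap. The median summed exon lengths of these 2 lists were 853 and 918 bases. Both are within the shortest bin of the length trend, where 32% of genes rose and the median was 0.44, above those of the 2 lists. Among the 28 tested genes of the mitochondrial genome, *mt:ATPase6* and *mt:ATPase8*, which overlap, rose by 0.90 and 0.80, and 5 genes rose without CT16 and CT18. *mt:CoI* had 0.08 and did not pass. In glycolysis 2 of 14 rose, also without CT16 and CT18. *ImpL3*, the lactate dehydrogenase, stood at 751, 809, 442 and 672 at day 50 and at 177, 207, 249 and 185 at day 25 (log2 fold change 1.68, standard error 0.21, adjusted p = 0.00048 in limma). *Hex-C*, a hexokinase, rose by 1.57, and the abundant *Gapdh2* had 0.46, below the fold limit.

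The 3 main channels of mechanotransduction in JO, named after their values were seen, were not called. *nan* stood at 379, 375, 599 and 444 at day 50 and at 586, 742, 424 and 573 at day 25, *iav* at 848, 1233, 1432 and 1442 at day 50 and at 1096, 817, 1213 and 1048 at day 25, and *nompC* at 748, 730.3, 660.4 and 596 at day 50 and at 914, 967, 726 and 851 at day 25. The log2 fold changes were -0.37 for *nan*, 0.23 for *iav* and -0.34 for *nompC*. In the list of 11 auditory channels, *TrpA1* fell by 0.89 and *pyx* by 0.76, both TRPA channels of heat sensing, and *inaF-B*, of a partner of the photoreceptor channel, rose by 1.79. None of the 3 calls held without CT16 and CT18, where the log2 fold changes were -0.76 for *TrpA1*, -0.52 for *pyx* and 1.49 for *inaF-B*. Of 16 voltage-gated channels none was called, with *para*, the sodium channel, at 0.03. Among 17 synaptic genes *nSyb*, the vesicle protein synaptobrevin, rose by 0.81 with no overlap between the ages, and had 0.67 and no call without CT16 and CT18.

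The motor genes of the cilium gave 3 falls and no rise in 18, a share of falls near the 16.4% of all genes. *Dhc62B*, an axonemal dynein heavy chain, stood at 658, 497, 619 and 518 at day 50 and at 1163, 1451, 769 and 1459 at day 25 (log2 fold change -1.04, standard error 0.20, adjusted p = 0.00533 in limma). *Dhc98D*, a further heavy chain, fell by 0.98 and *CG14905* by 0.69, and *Dhc93AB*, the most abundant of the list, had -0.20 and did not pass. Without CT16 and CT18, *Dhc62B* (-0.88, adjusted p = 0.0863) and *CG14905* (-0.79, adjusted p = 0.0815) passed. Of 20 genes of intraflagellar transport, which carries cargo along the cilium, *Osm6* fell by 0.65, a call that held without CT16 and CT18 (-0.86, adjusted p = 0.0733). In the list of scolopale and support cell genes *eys*, of a protein of the lumen around the cilium, rose by 0.81, with 1374, 1514, 863 and 1062 at day 50 and 723, 556, 731 and 681 at day 25. *nompA*, of the cap that ties the dendrite to cuticle, fell by 0.67, *alphaTub85E* by 0.76 and *sens* by 1.24. None of these 4 passed without CT16 and CT18, with 0.70 for *eys*, -0.60 for *nompA* and -0.55 for *alphaTub85E*.

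Of the transcription factors that the study followed, 4 of 18 tested rose and 2 fell, and none was called without CT16 and CT18. The study predicted these factors from the same samples, so the count is not independent evidence of a direction. *amos*, a proneural factor, stood at 15.9, 13.2, 4.87 and 29.6 at day 50 and at 46.6, 58.5, 13.7 and 105 at day 25, a log2 fold change of -1.67 (adjusted p = 0.0614 in limma). *wor*, of the Snail family, fell by 0.77. Besides *Pph13* and *srp*, *Tbp*, the TATA binding protein, rose by 0.76 and *Sox14* by 0.62. *onecut* had 0.03 and *Optix* -0.04, with no call.

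Of 83 cuticle proteins tested 3 rose and 24 fell, with a median of -0.54, and 2 rose and 6 fell without CT16 and CT18, where the median was -0.51. The list's median level was 35.2 normalised counts, and of all genes with a mean of 20 to 50, 28.3% fell. The falls numbered 12 without CT14. *Acp1*, an adult cuticle protein, stood at 2.45, 10.6, 3.25 and 19.5 at day 50 and at 174, 53.1, 79.4 and 30.2 at day 25 (log2 fold change -3.19, standard error 0.64, adjusted p = 0.00642 in limma). The most abundant members, *Cpr65Au* with -0.34 and *Cpr67B* with 0.11, were not called. Of 16 cadherins, cell adhesion proteins encoded by long genes, none rose and 9 fell, with a median of -0.61. A change below 0 was seen in 15 of the 16. *ds* and *ft*, partners that set planar polarity, fell by 1.25 and 0.99, and *ds* stood at 174, 208, 159 and 132 at day 50 and at 389, 535, 264 and 449.9 at day 25. Of the 9, 2 passed without CT16 and CT18, where the list's median was -0.55. The median summed exon length of the list was 6918 bases, in the longest bin of the length trend, where 6.9% of well-expressed genes fell. Of 29 muscle genes 1 rose and 6 fell, *Scp1* by 1.03 and *Unc-89* by 0.92, and none rose and 4 fell without CT16 and CT18. Of the Osiris family of membrane proteins, 2 of 17 rose and 7 fell, *Osi21* by 1.66, with 3 falls without CT16 and 1 without CT16 and CT18.

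**Figure D5:**
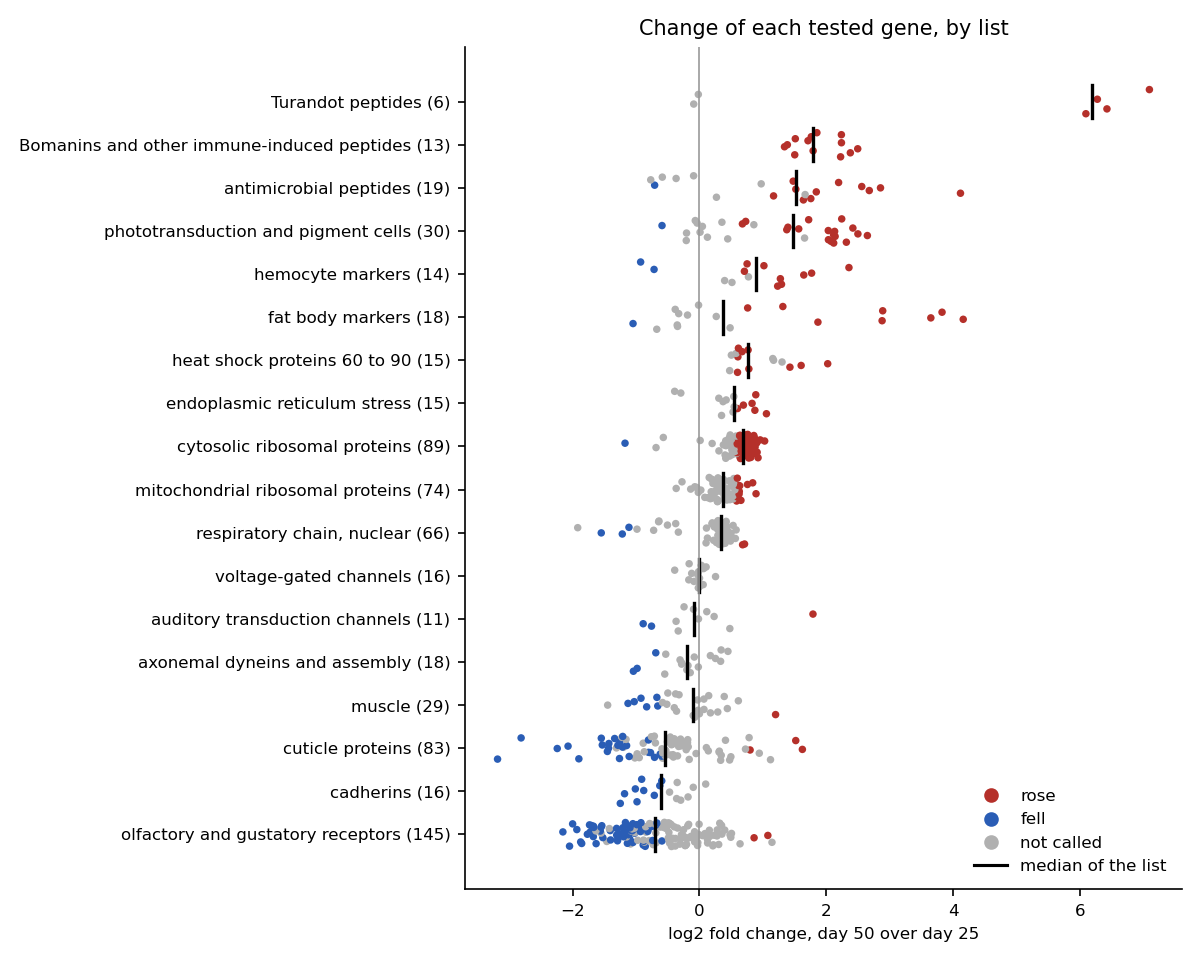
Log2 fold change, day 50 over day 25, of every tested gene in 18 lists, with the number tested in parentheses and the list median as a black bar. All 13 Bomanins lie on the right and all are called, and the olfactory and gustatory receptors have 57 falls and a median of -0.70.

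Of 145 olfactory, ionotropic and gustatory receptors tested 2 rose and 57 fell, with a median of -0.70, and none rose and 13 fell without CT16 and CT18, where the median was -0.61. Without CT14, 33 fell. The list's median level was 54.6 normalised counts, and of all genes with a mean of 50 to 100, 29.9% fell. *Or69a*, of an odorant receptor, stood at 534, 387, 452 and 217 at day 50 and at 799, 1306, 471 and 823 at day 25, a log2 fold change of -1.08 (adjusted p = 0.0116 in limma). *Gr93c*, a gustatory receptor, fell by 1.94 and *Gr57a* by 2.15. The co-receptor *Orco*, which marks neurons of the third segment, had 0.28 and was not called. Of 45 odorant binding proteins 6 rose, *Obp99c* by 2.15, and 10 fell, *Obp85a* by 2.84, with 3 rises without CT16, 6 falls without CT14, and 4 rises and 2 falls without CT16 and CT18. *Obp19d*, the most abundant, had -0.21 and was not called.

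The largest falls were small in level. *CG42705* had the largest log2 fold change of this kind (-3.31, adjusted p = 0.0364 in limma), but it stood at 3.68, 9.67, 17.9 and 6.77 at day 50 and at 2346, 39.5, 18.8 and 36.8 at day 25, so that CT11 stood far above the other 7 libraries. Without CT11 the log2 fold change was -1.71, and without CT16 and CT18 the gene did not pass (adjusted p = 0.184). Its neighbour on X, *CG42704*, had the same high library. *CG17562* stood at 24.5, 13.2, 0 and 13.6 at day 50 and at 65.3, 138, 42.7 and 111 at day 25 (log2 fold change -3.27, and -4.02 without CT16 and CT18). *CycB*, the mitotic cyclin B, was 1 of the 15 largest falls among genes with a mean of 50 or more, with 31.9, 38.7, 30.1 and 34.7 at day 50 and 112, 170.2, 107 and 144 at day 25 (log2 fold change -1.93, standard error 0.28, adjusted p = 0.00146). Of the 15, CT12 was the highest library in 11, CT11 in 2 and CT14 in 2.

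Of 37 glutathione S-transferases, which conjugate toxins, 9 rose and 3 fell, and 6 rose and 2 fell without CT16 and CT18. *GstE14*, which ecdysteroid synthesis needs, stood at 168, 94.03, 38.2 and 54.2 at day 50 and at 15.6, 13.6, 13.7 and 14.2 at day 25 (log2 fold change 2.33, adjusted p = 0.0034 in limma). *GstD2* rose by 1.12 with no overlap between the ages, and the abundant *GstD1* had 0.54, below the fold limit. Of 80 cytochrome P450 genes 6 rose and 18 fell, *Cyp303a1* by 1.99. The rises numbered 3 without CT16 and the falls 8 without CT12, and none rose and 5 fell without CT16 and CT18, while *Cyp6g1*, the most abundant, had -0.50 and was not called. Of 18 genes of oxidative stress defence 2 rose, *PHGPx*, a peroxidase of lipids, by 0.79, and 1 without CT16 and CT18. *Sod* had 0.04 and *Cat* 0.11, both without a call. Among 17 genes of cell death and DNA damage, the caspases *Dronc* and *Drice* rose by 1.03 and 0.74, *Gadd45* by 1.00, and the checkpoint kinase *lok* fell by 0.59. Of these 4 calls, that of *Gadd45* held when CT16 and CT18 were left out (0.82, adjusted p = 0.0733 in limma), with 0.65 for *Dronc*, 0.62 for *Drice* and -0.49 for *lok*.

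Signals and growth regulators gave single calls. *ImpL2*, a secreted binder of insulin-like peptides, stood at 1255, 896, 923 and 1121 at day 50 and at 564, 704, 419 and 488 at day 25 (log2 fold change 0.96, standard error 0.17, adjusted p = 0.00395 in limma), and was 1 of 3 rises in 22 genes of insulin and Tor signalling. *CCHa2*, a peptide hormone, rose by 2.05 and *Ms*, myosuppressin, by 1.97, among 4 rises and 4 falls in 34 neuropeptides, with no fall without CT14. *Act42A*, a cytoplasmic actin, stood at 1608, 1268, 1075 and 1276 at day 50 and at 389, 351, 439.8 and 501 at day 25 (log2 fold change 1.63, adjusted p = 0.000256). Of 13 clock genes *jet* rose and *vri* fell, of 12 glial markers 1 rose and 2 fell, and of 9 Y-linked fertility factors none was called. Of 16 actins and tubulins 3 rose, *Act42A* among them, and 3 fell. Of 15 genes of sex determination and dosage compensation 5 rose, 3 of which were the yolk protein genes, with 2 rises without CT12. Of 7 innexins 2 fell, of 6 sodium pump genes 1, of 13 testis markers 3, of 42 serine proteases and serpins 2 rose and 8 fell, with 3 falls without CT12, and of 21 lysozymes and lectins 3 rose and 5 fell, with 3 falls without CT14. Leaving out both CT16 and CT18 gave 1 rise in insulin and Tor signalling, 3 rises and 2 falls in neuropeptides, 1 rise in actins and tubulins, 3 rises in sex determination, 2 falls in testis markers, 1 rise and 1 fall in serine proteases and serpins, and 4 rises and 3 falls in lysozymes and lectins. It gave no call in clock genes, glial markers, Y-linked fertility factors, innexins and sodium pump genes.

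The late change differed between the sexes as labelled for 33 genes (0.235% of those tested, adjusted p below 0.1 in limma for the difference). Of these, 32 had a lower log2 fold change in females than in males and *sxe2* had a higher one. CT16 and CT18 held transcripts of both sexes, and the part of this mixing in the differences was not tested. In this test, fewer genes had an unadjusted p below 0.05 than chance alone gives. Within females 3 of the 33 rose, and within males 30. *CG12116* stood at 3534, 5114, 1339 and 2823 at day 50 and at 194, 191, 438 and 836 at day 25, with a log2 fold change of 1.68 in females and 4.46 in males. *Rfabg*, the lipophorin precursor made by the fat body, had 0.20 in females and rose by 2.43 in males. *CG2233* had 0.13 in females and 2.83 in males, and *CG4716* had 0.34 in females and 3.41 in males. In these 4 genes the male libraries of day 25 were the lowest of the 8. *sxe2*, of a lipase relative with male bias, stood at 4523, 3859.8, 1289 and 3798 at day 50 and at 7918, 11210.1, 643 and 568 at day 25, and CT18 was near the male libraries of day 50. All 5 genes of this paragraph were named after their values were seen. Without CT16 and CT18, 272 genes differed, all 33 among them, with 1 library of day 50 left per sex. No gene differed without CT13, without CT14 or when all 18 libraries shared 1 estimate of the spread, and 605 of 14022 had an unadjusted p below 0.05.

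The ages before day 25 place these changes, as a description without a test, in 4 libraries of day 1, 4 of day 5 and 2 of day 10, the last both labelled male. *Arc1* ran from 755 to 1577 in the 10 libraries of days 1, 5 and 10, so that day 50 stood above every earlier library, and the same held for *ImpL3*, at 179 to 411 in those libraries. *MtnA*, at 892 to 3950, and *CG18067*, at 9952 to 36933, were also above all earlier libraries at day 50. *TotA* was not, since libraries of day 1 reached 3179 and of day 5 reached 6880, above CT17. Peptides of the Toll response were high at day 1 too. *CG15067* stood there at 5807 to 15332, *IM14* at 4723 to 6895, *IM4* at 1921 to 3200 and *IM23* at 369 to 598, ranges that overlapped those of day 50. At day 5, *CG15067* stood at 171 to 2976 and *IM4* at 270 to 1598. Genes of phototransduction varied widely between libraries of younger ages as well. *ninaE* stood at 145 to 77899 at day 5 and at 3585 to 52509 at day 10, and *Arr2* at 288 to 30494 and at 1801 to 17650. *Act42A*, a cytoplasmic actin, had been highest at day 1, at 3470 to 5467. Among the falls, *Est-6* stood at 11523 to 14698 at day 1, below every library of day 25. It stood at 44424 to 56088 at day 5 and at 58203 to 63518 at day 10, above both later ages. *Acp1* stood at 4081 to 6675 at day 1. *Dhc62B* stood at 494 to 695 over days 1 to 10, so that its 4 libraries of day 25 were above every earlier library. *Dhc98D* stood at 332 to 628 over days 1 to 10, against 322 to 565 at day 50. *dp* stood at 3648 to 4988 over days 1 to 10, a range that reached into that of day 25. *CycB* stood at 55.5 to 171 at day 1 and at 55.9 to 138 at day 5, which overlapped day 25, and at 31.7 to 41.6 at day 10.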

How the data were processed

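RNA of dissected 2nd antennal segments was amplified with SMART-Seq v4, a protocol that does not mark strand, and made into Nextera XT libraries. The authors aligned the paired reads to dm6 in Partek Flow, counted them with HTSeq and deposited a signal column per library, the counts divided by 1 DESeq2 size factor. Tool versions are not given in the sources used here. Every value of the 8 libraries came out as a whole number of reads within 0.01, with 5815182 to 14121124 reads in genes per library. The deposited tables also hold the authors' own comparisons, as log2 fold changes, Wald scores and p-values, which were not used. Gene positions are those of a reference annotation of the same genome, matched by gene ID.

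The main test was limma 3.58.1 in R 4.3.3 on log2(value + 1) of the 8 libraries, with age and labelled sex as terms. Tested genes had a value of 10 or more in at least 2 libraries, and calls needed an adjusted p below 0.1 and a fold above 1.5. Within-sex changes and their difference came from 1 coefficient per age and sex. Alternatives were other pseudocounts, filters and scalings, count tests on the recovered reads (edgeR 4.0.16 with TMM, and DESeq2 1.42.0), all 18 libraries, age alone, each library left out, and CT16 and CT18 left out.

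Named genes were the called genes with the 15 largest rises and falls, given a mean of 50 or more and the same direction in both sexes, the 8 most abundant rises and falls, up to 4 called and the 2 most abundant members of each of 51 gene lists, sex markers, and transcription factors knocked down in the study. Further genes were chosen after their values were seen, namely those so marked, the main proteasome subunits, *Hml*, *eater*, *vkg*, *Cg25C*, *PPO1*, *PPO2*, *TotB*, *TotF*, *kkv*, *AttC*, *Idgf3*, *pll*, *key*, *nec*, *Cyt-c-p* and *ox*. The libraries, lists and rule were chosen with earlier results of these data known. Of the list entries, 17 were not matched, and 4 (*Diedel*, *et*, *CG14225* and *Cda3*) were restored after values had been seen, having been dropped by a typing error.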

Additional observations from a re-analysis of the deposited data

Results flagged for a closer look

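In groups of 4 libraries, single values stood far from the other 3, in 6 of 82 groups examined, where chance alone gives about 1 in 20. On the log2(value + 1) scale these were *TotA* at day 50, lowest in CT17 at 10.89, *Cht8* at day 50, highest in CT17 at 10.81, and *Cht8* at day 25, lowest in CT13 at 2.40. They further were *Yp3* at day 50, lowest in CT15 at 10.54, *CG42705* at day 25, highest in CT11 at 11.20, and the log2 of the summed cuticle proteins at day 25, lowest in CT14 at 15.17.

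The late change differed between the sexes by limma's test of the difference for 13 named genes, with female minus male values on the log2 scale. The yolk proteins had -7.08 for *Yp3*, -6.25 for *Yp2* and -5.02 for *Yp1*. The odorant binding proteins had -4.27 for *Obp99a* and -2.28 for *Obp99c*. *Rh2*, an opsin of the ocelli, had -4.60 and *Nplp2* -2.51. *Hex-C* had -2.22, *Rfabg* -2.24, *CG12116* -2.78, *CG2233* -2.70 and *CG4716* -3.07. *sxe2* alone of the 13 was positive, at 3.04. The adjusted p-values ran from 0.0299 to 0.0805, and in these comparisons CT16 and CT18 carried transcripts of both sexes.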

How the results depend on the processing

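No gene called in the fit reported was called in the opposite direction under any alternative. Named genes without a call could change sign near 0, such as *para*, with 0.03 in all 8 libraries and -0.08 without CT16 and CT18. Of 236 called among 330 named genes, 236 kept the call under TMM scaling, 224 under edgeR, 223 under DESeq2, 220 with age alone and 115 without CT16 and CT18. Over all genes, counts of rises and falls stayed within 1.5 times of the reported 1445 and 2300 under TMM scaling (1434 and 2310), edgeR (1408 and 2194), DESeq2 (1425 and 2413) and all 18 libraries (1434 and 2558). They moved further without CT16 and CT18 (486 and 496), with a fold limit of 2 (495 and 1409) and, for falls, with a mean of 50 or more (1473). Leaving out 1 library gave 1032 to 1707 rises and 1050 to 2542 falls. Within females, a mean of 50 or more gave 72 falls, all 18 libraries 422 rises and 585 falls, no CT16 and CT18 86 rises, and leaving out 1 library 14 to 255 rises and 1 to 534 falls, the lowest without CT14. Within males, no CT16 and CT18 gave 577 rises and 438 falls, and leaving out 1 library 399 to 1066 rises and 33 to 1138 falls, the lowest without CT12. The difference between the sexes had 33 genes in the fit reported, 272 without CT16 and CT18, 0 with all 18 libraries and 0 to 151 with 1 library left out. The lone library of a group is then assumed to vary like the other groups. The cause of these moves was not tested. No paired analysis was possible because the labels tie no library of one age to a library of another.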
